A study of Mus musculus with 8 samples.

Results

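Replication timing of 7 genes at the centre of the embryonic stem cell network was examined in control cells and in cells treated to remove YY1. YY1 is a zinc finger protein that binds promoters and enhancers. The 7 genes were Pou5f1, Sox2, Sall4, Lin28a, Utf1, Fgf4 and Tdgf1. They were chosen by name, not by their timing, though earlier results of these data were known. All 7 were among the 21519 protein-coding genes with a timing score. Each gene was read at its midpoint on mm10 and along the profile 1 Mb either side. The material was mouse embryonic stem cells labelled with BrdU for 2 h and sorted into an early and a late S phase fraction, and each pair of fractions gave 1 profile. The 8 samples formed 2 control profiles and 2 profiles from cells collected 2 days after treatment with dTAG, a small molecule that sends a tagged protein, here YY1, for degradation. The labels refer to earlier work for the cell line, its culture and what the control cells received, so the strain, the number of clones and the vehicle are not stated here. YY1 protein was not measured in these data, so the extent of depletion in each profile is unknown.

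The deposited value was a signed score at positions 5 kb apart, and no read counts came with it, so the depth behind a score is unknown. High scores were read as early, because 79 of 80 genes for ribosomal proteins, which are needed in every cell, scored above 0 in all 4 profiles. The replicate numbers had mirrored sets of scores, with a mean of 0.20 in replicate 1 and -0.20 in replicate 2, and over all protein-coding genes replicate 2 minus replicate 1 had a median of -0.42 in the controls and -0.46 after dTAG. For this reason every difference between dTAG and control is also given for replicate 1 and replicate 2 on their own. The titles and the stated S phase fraction of dTAG 1 conflict on which sample is early, but over genes its profile correlated with that of control 1 at r = 0.990. The labels name no separate cultures, so the p-values cover only the spread between these profiles, which may be technical.

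Embryonic stem cells hold their undifferentiated state through a small set of transcription factors that switch on each other and a shared group of targets. POU5F1, also called OCT4, and SOX2 bind DNA side by side, and the enhancer of Fgf4 and that of Utf1 are classical sites of this pair. DNA is copied in domains, and domains rich in active genes are usually copied early in S phase, whereas gene-poor and silent domains are copied late.

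The stretch before the start of each gene was read first, since YY1 often binds close to the start of transcription. RefSeq promoter sequences on GRCm38.p6 were matched for 6 of the 7 genes, all but Sall4. The long YY1 motif, AAGATGG followed directly by CGGC, was searched on both strands in the 250 bases before the start. It occurred in 0 of the 6 promoters and in 0.207% of 32851 promoter stretches of that length. A shorter form of the motif, GCCATNTT, occurred in 0 of 6 and in 3.91% of all, and AAGATGG alone in 0 of 6 and 4.49%. The 4 letters that all these forms share, CCAT or ATGG on the other strand, were found in 3 of the 6 promoters and in 77.4% of all. Of the promoters with them, Sox2 and Utf1 held 2 copies each and Tdgf1 held 3, while Pou5f1, Lin28a and Fgf4 held 0. No match says only that these letters were not in this window, and the bases after the start were not searched. At Lin28a the whole window lies inside the annotated gene, before a start 380 bases in. Pou5f1, Sox2 and Tdgf1 are shown because they span the range from 0 to 3 copies, with the 4 letters in capitals.
Pou5f1, chr17:35505782-35506031, plus strand: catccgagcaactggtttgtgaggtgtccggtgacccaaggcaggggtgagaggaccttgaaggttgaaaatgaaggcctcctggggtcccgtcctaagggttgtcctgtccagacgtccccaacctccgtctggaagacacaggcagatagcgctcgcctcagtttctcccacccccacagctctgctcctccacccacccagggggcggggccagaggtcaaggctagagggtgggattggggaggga
Sox2, chr3:34649745-34649994, plus strand: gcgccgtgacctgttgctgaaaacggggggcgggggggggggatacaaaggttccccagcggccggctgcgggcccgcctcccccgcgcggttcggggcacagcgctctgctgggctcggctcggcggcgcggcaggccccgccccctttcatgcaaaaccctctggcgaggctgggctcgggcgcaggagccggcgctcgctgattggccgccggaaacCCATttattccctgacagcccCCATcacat
Tdgf1, chr9:110946159-110946408, minus strand: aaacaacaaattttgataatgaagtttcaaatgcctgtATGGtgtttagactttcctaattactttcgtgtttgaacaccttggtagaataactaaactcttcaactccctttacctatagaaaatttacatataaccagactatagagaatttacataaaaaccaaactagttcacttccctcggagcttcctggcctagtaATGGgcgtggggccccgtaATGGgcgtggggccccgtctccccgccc
The promoters also differed in base composition. That of Sox2 was 72% G or C with 27 CpG dinucleotides, 0.833 of the number its base composition gives by chance, and that of Fgf4 was 71.2% with 21. The promoter of Pou5f1 was 62% G or C but held 8 CpG (0.334), and that of Tdgf1 was 42% with 7 (0.648). The median over all promoter stretches was 52.4% and 0.373.

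All 7 genes replicated early, with scores from 2.93 to 5.46 over the 4 profiles. Scores above 0 in all 4 profiles were found at all 7 and at 77.5% of all protein-coding genes. The median of the 7 mean scores was 3.81, against 3.25 over all protein-coding genes. The plot of scores at the gene midpoints shows each value.

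**Figure D1:**
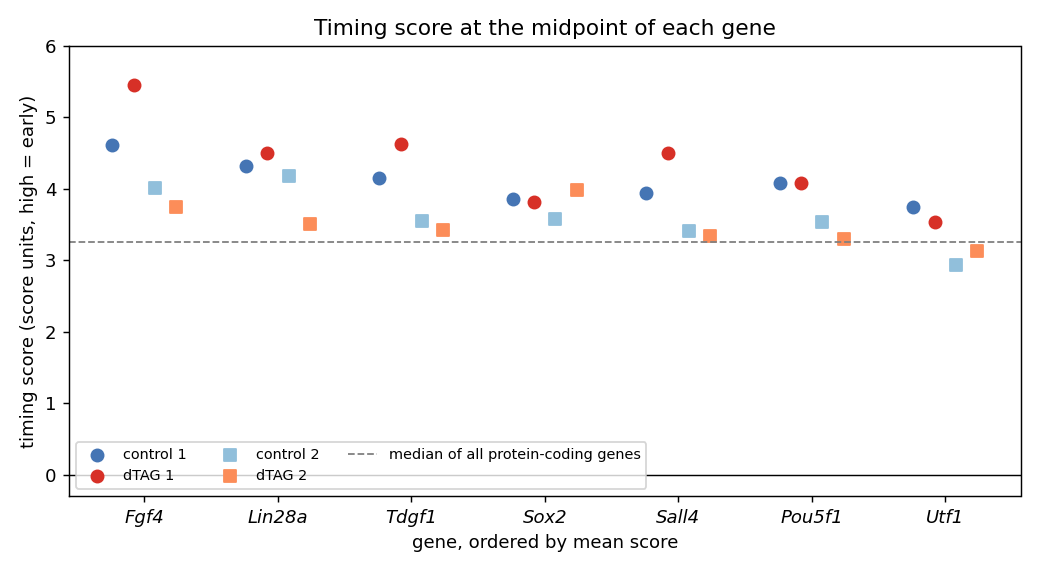
Timing score at the midpoint of each gene (vertical axis, score units, high = early) in the 4 profiles; circles are replicate 1, squares replicate 2, blue control and red or orange dTAG, and the dashed line is the median of all protein-coding genes. Fgf4 has the highest mean, 4.46, and Utf1 the lowest, 3.34, and control and dTAG points overlap at all 7 genes.

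Among the transcription factors, Pou5f1 (chromosome 17, 35506032 to 35510777) scored 4.08 in control 1, 3.53 in control 2, 4.08 in dTAG 1 and 3.29 in dTAG 2. Both replicate 1 values lay above both replicate 2 values, whatever the treatment. Sox2 (chromosome 3, 34649995 to 34652461), the gene for the partner of POU5F1, scored 3.86 and 3.58 in the controls and 3.81 and 3.99 after dTAG. It was the only one of the 7 at which dTAG 2 exceeded dTAG 1. Sall4 (chromosome 2, 168748332 to 168767201), which encodes a zinc finger factor that works with both, scored 3.94 and 3.41 in the controls and 4.51 and 3.34 after dTAG. Utf1 (chromosome 7, 139943856 to 139945112), the gene for a chromatin-associated factor of undifferentiated cells, scored 3.75 and 2.93 in the controls and 3.54 and 3.14 after dTAG. Utf1 was the lowest of the 7 genes in all 4 profiles.

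Lin28a (chromosome 4, 134003330 to 134019196) encodes an RNA-binding protein that blocks the maturation of let-7 microRNAs. It scored 4.32 and 4.19 in the controls and 4.50 and 3.51 after dTAG, so that dTAG 2 stood below the other 3 values. Fgf4 (chromosome 7, 144861386 to 144865245) encodes the growth factor that drives ERK signalling in these cells. It scored 4.61 and 4.01 in the controls and 5.46 and 3.74 after dTAG, the widest range of the 7 genes. The dTAG 1 value lay above 97.9% of protein-coding genes in that profile, and the other 3 lay above 77.2% to 85.0% in theirs. Tdgf1 (chromosome 9, 110939608 to 110946158), also called Cripto, encodes a co-receptor for NODAL, and scored 4.15 and 3.56 in the controls and 4.62 and 3.43 after dTAG. dTAG 1 was highest and dTAG 2 lowest here, as at Sall4, Fgf4, Lin28a and Pou5f1.

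By mean score the order was Fgf4 (4.46), Lin28a (4.13), Tdgf1 (3.94), Sox2 (3.81), Sall4 (3.80), Pou5f1 (3.75) and Utf1 (3.34). Only the last step, from Pou5f1 to Utf1, had the same direction in all 4 profiles, with a gap of 0.41 ± 0.20 (SD over 4 profiles). The gap between Fgf4 and Lin28a was 0.33 ± 0.47 and that between Lin28a and Tdgf1 0.19 ± 0.32, each in the same direction in 3 profiles. Tdgf1, Sox2, Sall4 and Pou5f1 changed places with their neighbours in 2 of the 4 profiles, so their order did not exceed the spread. Against all protein-coding genes the lowest and highest standing of a gene over the profiles was 46.8% and 59.7% for Utf1, 61.5% and 85.4% for Sox2 and 58.7% and 70.0% for Pou5f1, as the share of genes with a lower score.

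At all 7 midpoints control and dTAG scores overlapped, and each difference was smaller than its standard error (SE) in limma with group only. At Pou5f1 the dTAG mean was 3.69 ± 0.56 and the control mean 3.81 ± 0.39 (SD, n = 2 each). In the same order the means were 3.90 ± 0.12 and 3.72 ± 0.20 at Sox2, and 3.93 ± 0.82 and 3.67 ± 0.37 at Sall4. At Utf1 both means were 3.34, with SDs of 0.28 after dTAG and 0.58 in the control. For the RNA-binding and signalling genes the means were 4.0 ± 0.70 and 4.25 ± 0.098 at Lin28a, 4.6 ± 1.21 and 4.31 ± 0.43 at Fgf4, and 4.03 ± 0.85 and 3.85 ± 0.42 at Tdgf1. limma, fitted over all 21519 genes with Benjamini-Hochberg adjustment, called 0 of the 7 (adjusted p 0.9999 at each) and 0% of all genes. At an unadjusted p under 0.05 it had 0 of the 7 and 0.795% of all genes (171, where a threshold of 0.05 gives 1076 by chance). The differences ran from -0.25 (SE 0.44) at Lin28a to 0.29 (SE 0.65) at Fgf4. Over all genes they ran from -2.20 to 2.37 with 0 called, so shifts of the size of these errors, and larger ones, could go undetected. These errors include the offset between replicate numbers. With the replicate number as a block the SE ran from 0.19 at Pou5f1 to 0.31 at Fgf4. In that fit only Sall4 had a difference (0.25) above its SE (0.23). With 2 profiles against 2, the smallest p an exact permutation test can give is 0.33.

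The replicate numbers did not agree on a direction at any of the 7 genes. At Fgf4 the difference was 0.84 in replicate 1 and -0.26 in replicate 2, at Sall4 0.57 and -0.07, and at Tdgf1 0.48 and -0.13. Lin28a had 0.18 and -0.68, and Pou5f1 had 0.00 and -0.24. These 5 genes were level or higher in dTAG 1 and lower in dTAG 2. Sox2 (-0.05 and 0.41) and Utf1 (-0.21 and 0.21) went the opposite way. A difference of the same sign in both replicate numbers was found at 0 of the 7 and at 55.9% of all protein-coding genes. After chromosome centring, a scaling in which the mean of each chromosome is removed from each profile, Pou5f1 had the same sign in both. Both dTAG scores lay above both controls at 0 of the 7 (10.0% of all genes) and below both at 0 of the 7 (8.42%). The median difference was 0.17 over the 7 genes and -0.02 over all genes, with 0.18 and -0.13 within the replicate numbers, against 0.01 and -0.08. The median of the 7 was 0.41 when control 1 was left out and 0.28 when dTAG 2 was, and that of all genes 0.19 and 0.20. It was -0.12 when control 2 was left out and -0.43 when dTAG 1 was, against -0.22 and -0.28.

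**Figure D2:**
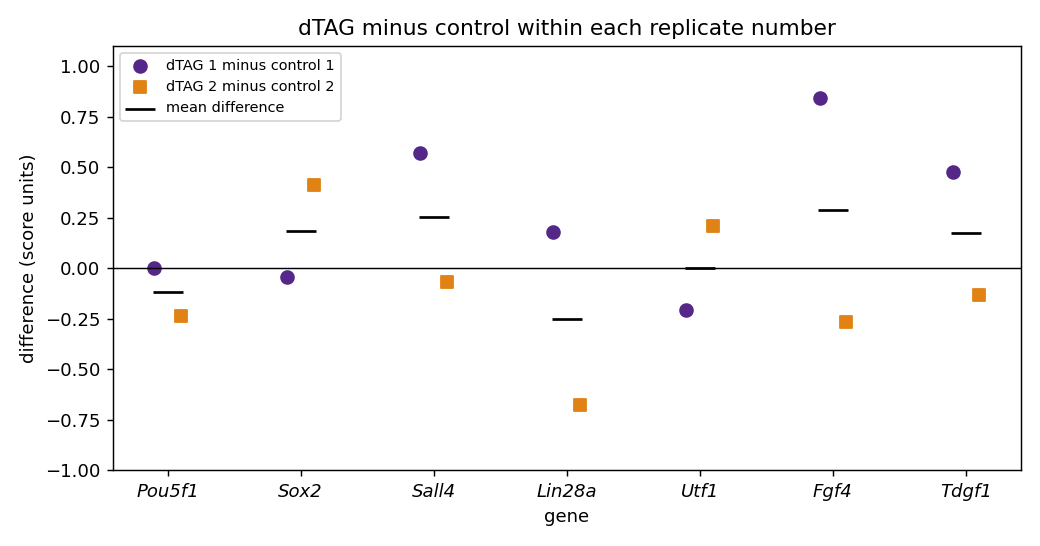
Difference in timing score between dTAG and control (vertical axis, score units) at each gene midpoint; circles are replicate 1, squares replicate 2 and black bars the mean. The circle and the square lie on opposite sides of 0 at all 7 genes, though at Pou5f1 the circle lies almost on it.

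The profile around each gene was then read for the nearest timing peak, a local maximum that rises at least 0.5 units above its surroundings and marks where a stretch is copied first. Offsets are in kb from the midpoint, negative towards lower coordinates (left). Peaks and edges were read from smoothed scores 5 kb apart, with edges interpolated between positions. Shifts of a few kb may therefore be below what the profiles resolve. Around Sox2 the 4 profiles had the same series of peaks and troughs. Its nearest peak lay 68.8 kb to the right of the midpoint in control 1, dTAG 1 and dTAG 2 and 63.8 kb to the right in control 2. Peak scores were 4.32 and 4.10 in the controls and 4.09 and 4.37 after dTAG. A further peak stood at offsets of -626 to -611 kb with scores of 3.47 to 4.0. Troughs lay at -311 to -291 kb (0.83 to 1.64) and at 469 to 564 kb (0.08 to 1.3). Sox2 sat near the top of a peak between both troughs in all 4 profiles.

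Utf1 had a peak and a trough at like offsets on its right in all 4 profiles, though dTAG 1 had 2 peaks within 1 Mb and the others 3. The nearest peak was 100.5 to 165.5 kb to the right, and its score exceeded that at the gene by 0.08 to 0.42 units. A trough followed 466 to 516 kb to the right, at 1.04 and 0.28 in the controls and 1.24 and 0.76 after dTAG, and beyond it the profile climbed to between 4.43 and 4.87 within the 1 Mb. The trough to the left, at -199 to -184 kb, scored 2.76 in both replicate 1 profiles and 1.54 and 1.78 in control 2 and dTAG 2.

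At Fgf4 the peak itself moved between profiles. It lay at -68.3 kb in control 1 (score 5.09), 6.7 kb to the right in dTAG 1 (5.46), 41.7 kb to the right in control 2 (4.05) and 126.7 kb to the right in dTAG 2 (4.34). In both replicate numbers the dTAG peak lay further right than the control peak, but the peak of control 2 also lay further right than both replicate 1 peaks. The trough to the left varied less, from -753 to -728 kb, with scores of 0.28 to 0.92. Scores ended 477 kb to the right of Fgf4, near the end of chromosome 7.

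At Pou5f1, Sall4 and Tdgf1 the nearest peak was on the left in some profiles and on the right in others. At Pou5f1 the nearest peak was 171.6 to 246.6 kb to the right in 3 profiles and at -158.4 kb in dTAG 2, which had a second one 186.6 kb to the right. Peaks on the right scored 4.98 and 4.59 in the controls and 5.78 and 4.73 after dTAG, so the gene lay 0.90 to 1.69 units below its nearest peak in control 1, control 2 and dTAG 1, and 1.14 below it in dTAG 2. At Sall4 a peak at -127.8 to -117.8 kb appeared in control 1 (5.48), control 2 (4.28) and dTAG 2 (4.15). In dTAG 1 the nearest peak was 107.2 kb to the right (4.87) and the next on the left was at -498 kb. At Tdgf1 a peak stood at -112.9, -122.9 and -177.9 kb in control 1, control 2 and dTAG 2, while the nearest on the left in dTAG 1 was at -518 kb. So dTAG 1, the profile with the highest midpoint score at both genes, was also the one without the near peak on the left.

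Lin28a lay in the flattest surroundings, where scores 1 Mb either side spanned 1.63 to 2.22 units in each profile, against 3.63 to 6.82 at the other 6 genes. Its nearest peak was 208.7 to 233.7 kb to the right in 3 profiles and 33.7 kb in control 2. A shallow trough at -131 to -121 kb was shared by all 4 profiles. The whole stretch was lower in dTAG 2 than in control 2 by a median of 0.47 units (difference -0.47), whereas dTAG 1 exceeded control 1 by 0.17.

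**Figure D3:**
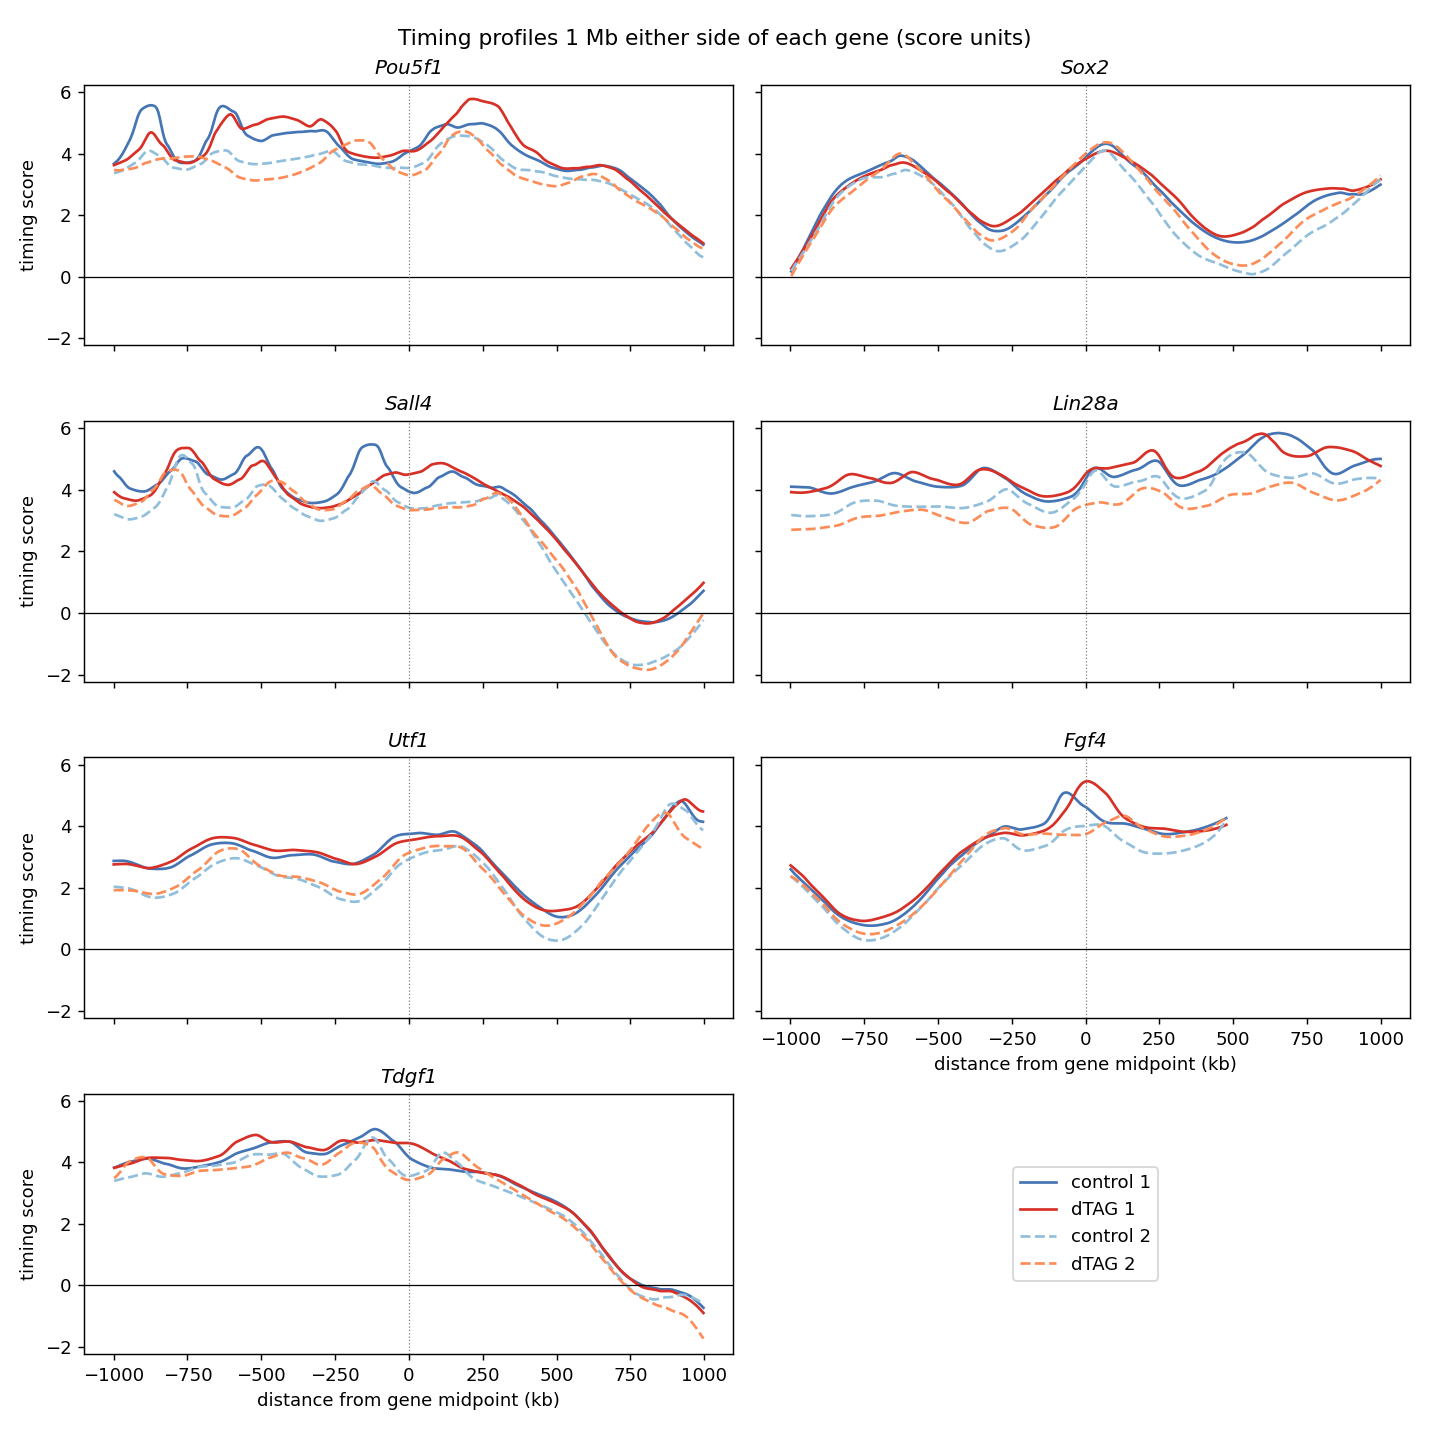
Timing score (vertical axis, score units) against distance from the gene midpoint (horizontal axis, kb) for the 4 profiles around each gene; solid lines are replicate 1, dashed lines replicate 2, blue control and red or orange dTAG. Sox2 shows 2 peaks in each profile. Sall4 and Tdgf1 slope to below 0 on the right, and Sall4 rises again towards 1 Mb. Lin28a stays at or above 2.70 throughout, and Fgf4 has no scores beyond 477 kb.

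The early domain of each gene was followed to the first position on either side where the score fell to 0. Edges within 1 Mb were found in all 4 profiles at Sall4 and Tdgf1. The right edge of the Sall4 domain lay 712 kb from the gene in control 1, 721 kb in dTAG 1, 595 kb in control 2 and 613 kb in dTAG 2. Beyond this edge the score fell only to -0.30 and -0.34 in control 1 and dTAG 1, against -1.69 and -1.85 in control 2 and dTAG 2. At 1 Mb it had risen again, to 0.77 and 1.03 in replicate 1 and to -0.17 and 0.08 in replicate 2. The edge was 8.9 and 18.6 kb further out after dTAG within the replicate numbers, while replicate 2 minus replicate 1 was -118 kb in the controls and -108 kb after dTAG. With all profiles put on a single distribution of scores, which removes the offset between replicate numbers, these edges were 679, 691, 611 and 626 kb, in the same order. The right edge of the Tdgf1 domain lay at 793 and 781 kb in control 1 and dTAG 1 and at 737 and 733 kb in control 2 and dTAG 2. After dTAG it was nearer by 12 and 4.3 kb. On a single distribution it lay at 747 kb in both replicate 1 profiles and at 765 and 761 kb in replicate 2, so the order of the replicate numbers turned.

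Sox2 had its nearer edge almost exactly 1 Mb to the left, at 1006 and 1008 kb in the controls and 1013 and 997 kb after dTAG. This edge varied by 15.8 kb over the 4 profiles and moved in opposite directions in the replicate numbers. On a single distribution it lay at offsets of -993 and -998 kb in replicate 1 and -1022 and -1012 kb in replicate 2. The right edge was 1949 to 2024 kb away, which gave an early domain of 2946 to 3030 kb. This length rested on the threshold of 0, since the trough on the right came down to 0.08 in control 2 and 0.36 in dTAG 2. For Utf1 the left edge was 1304 and 1277 kb away in the controls and 1296 and 1269 kb after dTAG, so it was 7.5 and 8.4 kb nearer after dTAG. Those shifts were smaller than the 26.4 and 27.4 kb between replicate numbers, whose order turned on a single distribution (offsets of -1283 and -1279 kb in replicate 1, -1293 and -1284 kb in replicate 2). Pou5f1 had its nearer edge 1968 to 2053 kb to the right and belonged to an early domain of 16605 to 16691 kb. On a single distribution its left edge lay at -12369.5 and -12405 kb in replicate 1 and at -14652 and -14646 kb in replicate 2, so that the length of this domain depended on the scaling. Lin28a and Fgf4 had nearer edges on the left that differed between replicate numbers by far more than between dTAG and control. For Lin28a they were 5643 and 5632 kb away in replicate 1 and 2486 and 2474 kb in replicate 2, and for Fgf4 6222 and 6215 kb against 2193 and 2231 kb. On a single distribution the Lin28a edges came together (offsets of -2569 and -2565 kb in replicate 1, -2519 and -2493 kb in replicate 2), while those of Fgf4 stayed apart (-6201 and -6198 kb against -2220 and -2254 kb).

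**Figure D4:**
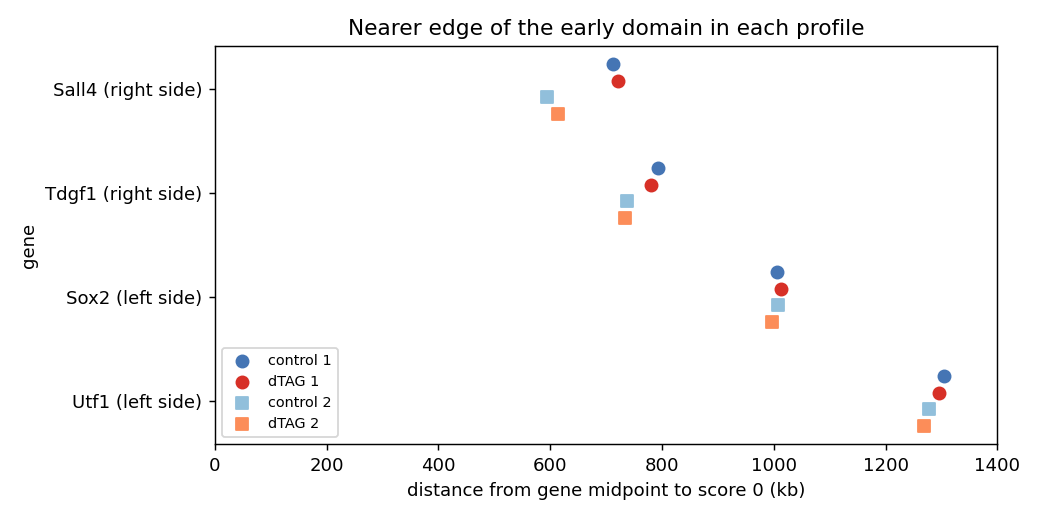
Distance from the gene midpoint to the nearer edge of its early domain, where the score reaches 0 (horizontal axis, kb), in each profile for the 4 genes with an edge nearest to 1 Mb; circles are replicate 1, squares replicate 2. At Sall4, Tdgf1 and Utf1 the replicate 2 edges lie nearer to the gene than the replicate 1 edges, an order that turned at Tdgf1 and Utf1 on a single distribution, and control and dTAG of a replicate number lie at most 18.6 kb apart.

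Over the whole 2 Mb around the genes, 2696 positions in all, the median size of the difference between dTAG and control was 0.15 units, against 0.20 over the table. With control 1, dTAG 1, control 2 or dTAG 2 left out it was 0.32, 0.29, 0.23 and 0.32, against 0.35, 0.37, 0.32 and 0.32 over the table. Neighbouring positions were smoothed together and are not independent. Both dTAG profiles lay at least 0.5 units above or below both controls at 0 of these positions and at 1.65% of all positions. By gene the median size ran from 0.10 around Tdgf1 and 0.12 around Pou5f1 to 0.23 around Sox2. Around Sox2, Utf1 and Fgf4 the median difference was above 0 in both replicate numbers. Around Sox2 the medians were 0.11 and 0.38, and the difference had the same sign in both at 79.8% of positions, against 60.7% over the table, 53.0% over all 7 genes and 22.5% around Lin28a, the lowest. The median of replicate 2 minus replicate 1 around Sox2 was -0.49 in the controls and -0.29 after dTAG. Around Utf1 the medians were 0.09 and 0.17, and around Fgf4 0.10 and 0.19. Sall4 (-0.04 and 0.05), Tdgf1 (0.02 and -0.07) and Pou5f1 (0.06 and -0.10) had medians of opposite sign. The largest single differences were -0.73 at -903 kb from Pou5f1, -0.70 at -123 kb from Sall4 and -0.64 at 997 kb from Tdgf1, and in the other direction 0.56 at 704 kb to the right of Sox2 and 0.55 at 82 kb to the right of Fgf4.

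The 7 genes all scored above 0 in all 4 profiles, as did 77.5% of all protein-coding genes, but they differed in gene density. Within 1 Mb of the midpoint there were 106 other protein-coding genes at Pou5f1, which lies among the major histocompatibility genes, 55 at Utf1, 53 at Lin28a, 35 at Tdgf1, 14 at Fgf4, 10 at Sall4 and 4 at Sox2. The median over all protein-coding genes was 28. Sox2 had no other protein-coding gene within 250 kb. Its nearest ones were Dnajc19, a mitochondrial import gene at -582 kb with a mean score of 3.61, and Atp11b, a phospholipid flippase gene 1154 kb to the right with 4.11. At the other genes the nearest neighbours were closer, from Tcf19 at 6.4 kb from Pou5f1 to Zfp64 at 167 kb from Sall4. Fgf4 lies between Fgf3 (mean 4.44) and Fgf15 (4.41), and the differences within the replicate numbers were 0.48 and -0.28 at Fgf3 and 1.0 and -0.12 at Fgf15, with the same signs as at Fgf4. Their midpoints lie at -22.3 and 35.4 kb from Fgf4 on the same smoothed stretch, so these are not separate observations. Both are also among the paralogues below.

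The genes whose 4 scores were most like those of 6 of the 7, by Euclidean distance over the 4 profiles and on other chromosomes, are given as a description. Nearest to Pou5f1 were Epp13, Pou2f3 and Gpn3 (distances 0.08, 0.08 and 0.09 score units), and nearest to Sox2 were Cdk16, Cd8a and Pigw (0.05 to 0.08). For Sall4 they were Ndufaf6, Rps2 and Ndufb10 (0.07 to 0.12), and for Lin28a Atxn2l, Tufm and Hinfp (0.10 to 0.13). Fgf4 was nearest to AI837181, Drap1 and Fosl1 (0.09, 0.09 and 0.10), which lie together on chromosome 19, and Tdgf1 to Pomgnt1, Alg12 and Slc35e2 (0.05 to 0.11).

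Of 22 paralogues, genes of the POU, SOX, SALL, LIN28, CFC and FGF families, 15 scored above 0 in all 4 profiles, with a median score of 2.63. The POU gene Pou2f2 had the highest mean, 4.48, and the brain factor gene Pou3f4 on chromosome X the lowest, -3.56. Lin28b, the paralogue of Lin28a, had a mean of -0.31 against 4.13, Pou5f2 had -2.53 against 3.75 for Pou5f1, and Sox3, also on chromosome X, had -1.92 against 3.81 for Sox2. The differences after dTAG ran from -0.59 at Sox3 (-0.42 and -0.76 within the replicate numbers) to 0.79 at the neural factor gene Pou3f2 (0.80 and 0.78). limma with group only called 0 of the 22, and 0 had an unadjusted p under 0.05, against 0.795% of all genes.

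All 21 other factors of the network scored above 0 in every profile, with a median score of 3.59. Stat3, which carries the LIF signal, had the highest mean (4.64) and the nuclear receptor gene Nr0b1 the lowest (0.52). Nr0b1 also had the lowest difference, -0.55 (-0.89 and -0.21), and the Myc family gene Mycn the highest, 0.33 (0.02 and 0.65). Both dTAG scores lay below both controls at 3 of the 21, Nr0b1, Dppa2 and Dppa4, and above both at 0, against 8.42% and 10.0% of all protein-coding genes. Dppa2 and Dppa4 lie close together on chromosome 16, with differences of -0.28 and -0.29, so they are not separate loci. Of 22 genes of FGF and NODAL signalling, the pathways of Fgf4 and Tdgf1, 20 were above 0 throughout, with a median of 4.0. The ETS factor gene Etv4 was highest (4.69) and the activin receptor gene Acvr2a lowest (-2.83). Differences ran from -0.53 at Foxh1 (-0.41 and -0.64), a partner of SMAD proteins, to 0.28 at the receptor gene Fgfr2 (0.30 and 0.26). Both dTAG scores lay above both controls at 1 of the 22, Fgfr2 (10.0% of all genes), and below both at 0 (8.42%).

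The pathway of LIN28 and let-7 had 18 of 19 genes above 0, with a median of 3.18. Igf2bp3, an RNA-binding protein gene, was highest (4.51), and the microRNA gene Mirlet7c-1 was lowest (-4.77). Tut4, which adds uridines to let-7 precursors for LIN28, had the highest difference, 0.33 (-0.05 and 0.71), and Mirlet7i the lowest, -0.91 (-0.87 and -0.95). Of 12 genes that mark other states, 10 were above 0 throughout, with a median of 2.23. The trophoblast factor gene Hand1 was highest (4.90) and the endoderm factor gene Foxa2 lowest (-1.52). The differences ran from -0.56 at the mesoderm gene T (-0.61 and -0.51) to 0.39 at the endoderm gene Sox17 (0.27 and 0.52). Both dTAG scores lay above both controls at 1 gene in each of these lists, the microRNA gene Mirlet7e and Sox17 (10.0% of all protein-coding genes). They lay below both at 0 (8.42%). limma with group only called 0 of the protein-coding genes in the network, signalling, LIN28 and other-state lists. In that fit 0 of them had an unadjusted p under 0.05, against 0.795% of all genes. Timing was measured here, not expression, so these genes say nothing of the state of the cells.

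**Figure D5:**
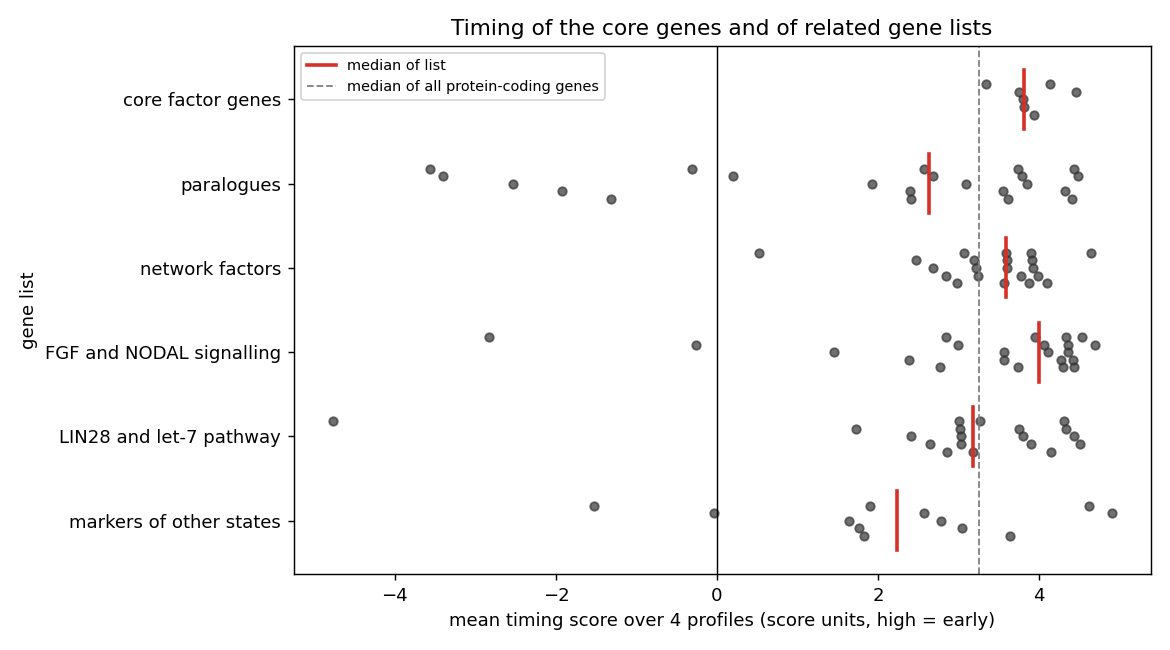
Mean timing score over the 4 profiles (horizontal axis, score units, high = early) of each gene in the 7 core genes and in 5 related lists; each dot is a gene, red bars are list medians and the dashed line is the median of all protein-coding genes. The core genes lie between 3.34 and 4.46, while paralogues reach down to -3.56.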

How the data were processed

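Timing was profiled by Repli-seq in 4 pairs of early and late S phase fractions, with 40000 cells per fraction per the labels. The authors deposited 1 signed score for each 5 kb position. Per the file name they applied Loess smoothing and quantile normalization. Formula, log base and direction are not stated. Bowtie2, SAMtools, bedtools and mm10 are named in the submitters' processing notes, without versions. Once sorted, control 1 and dTAG 1 hold the same scores, and dTAG 2 holds them with the opposite sign.

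Each gene took the score of the position nearest its midpoint, taken from the RefSeq annotation of GRCm38.p6, on which mm10 coordinates hold. All 21519 protein-coding genes with a score were fitted with limma 3.58.1 in R 4.3.3 (group as the only term, 2-sided, threshold 0.05 after Benjamini-Hochberg). The fit was first checked on simulated profiles with independent noise and no offset between replicate numbers. That check does not show what shift these data could detect. Peaks (prominence 0.5, scipy 1.17.1) were local maxima, and edges the first interpolated crossing of 0. The genes named were the 7, their neighbours and nearest likenesses, the extremes of 5 lists, close paralogues and genes whose groups did not overlap, the last 2 sets chosen after their values were seen. The genes most like Utf1 are not reported here. The 7 genes and the lists were chosen with earlier results of these data known, and the count of like signs, the 4-letter motif, the promoters shown and the edges on a single distribution were added after seeing the data. Alternatives were the replicate number as a block, other normalizations, positions, thresholds, and each profile left out.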

Additional observations from a re-analysis of the deposited data

How the results depend on the processing

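No setting called any of the 7 genes, in limma with or without the replicate block, with a trended and robust variance, on a single distribution, with chromosome centring, over 50 kb or the gene body, or with 1 profile left out. Of all genes, limma called 558 with the trended and robust variance and the replicate block together, 4 without dTAG 1, 5 without dTAG 2 and 0 otherwise. With 1 profile left out, an arm holds 1 profile, the spread comes from the other group alone, and the lone profile is assumed to vary like it, so these fits say little about the 7 genes. With the replicate block alone limma called 0 genes. In that fit 1652 of all 21519 genes had an unadjusted p under 0.05 instead of 171, where the threshold gives 1076 by chance. They included 0 of the 7, 3 of the 22 paralogues, 1 of the 22 signalling genes and 1 of the 12 other-state genes. Of the 21 network genes and the 11 tested LIN28 genes they included 0. The adjusted p of the 7 genes ran from 0.821 to 0.999 in that fit. No label ties a number to a shared culture or day. Over genes, replicate 1 minus replicate 2 in the control and after dTAG correlated at r = 0.636. Leaving out 1 profile gave a median difference over the 7 from -0.43 to 0.41, 0 to 5 genes called and a median size of the difference over 2 Mb from 0.23 to 0.32.

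With 1 profile left out, the difference ranged from -0.51 to 0.28 at Pou5f1, -0.33 to 0.83 at Sall4, -0.75 to 0.25 at Lin28a, -0.41 to 0.41 at Utf1, -0.57 to 1.14 at Fgf4 and -0.43 to 0.77 at Tdgf1. These ranges include both signs. Leaving out a profile unbalances the replicate numbers, and the median over all genes ran from -0.28 to 0.20 in the same fits. Sox2 stayed positive in the 4 fits, from 0.04 to 0.32, though its differences within the replicate numbers were -0.05 and 0.41. Chromosome centring turned the difference at Utf1 from -0.00032 to 0.016, and the other scalings and positions kept the sign at all 7. In the mean of the 4 profiles, the median distance to a peak over the 7 genes was 128 kb, and 151 kb for peaks of at least 1 unit. In that mean profile the median distance to the nearer edge was at least 1000 kb, or 1285 kb with edges beyond 1 Mb counted. All 7 genes were above 0 in all 4 profiles on a single distribution, with chromosome centring and over 50 kb. The 7-letter motif, edges beyond 1 Mb, gene-body counts and profiles left out over 2 Mb were added after seeing the data. No depth came with the scores, so no counting error was attached.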

Other observations

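The let-7 microRNA genes, whose products LIN28A holds back, were not among the protein-coding genes tested, so their values are given without a test. Mirlet7i scored 2.63 and 1.73 in the controls and 1.77 and 0.79 after dTAG. It was lower after dTAG by a like amount in both replicate numbers, but the groups overlapped, since dTAG 1 lay just above control 2. Mirlet7a-1, Mirlet7f-1 and Mirlet7d, which lie in 1 cluster on chromosome 13, had differences of 0.23, 0.23 and 0.22, and Mirlet7e 0.28. Mirlet7e scored 2.84 and 2.90 in the controls and 3.13 and 3.16 after dTAG, so its groups did not overlap. Mirlet7b had -0.26 and Mirlet7g 0.01. Mirlet7c-1 was late in all 4 profiles, at -4.16 and -5.04 in the controls and -4.43 and -5.46 after dTAG.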
